A study of Arabidopsis thaliana with 6 samples.

Results

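Jasmonates are oxylipin hormones that plants make from chloroplast fatty acids when leaves are wounded or eaten. Lipoxygenases such as LOX2 and LOX3 start the pathway, allene oxide synthase (AOS) commits the product to it, and the reductase OPR3 acts after transfer to the peroxisome. The hormone, joined to isoleucine, removes JAZ repressor proteins, which frees MYC transcription factors to switch on genes such as those of the vegetative storage proteins, while a branch shared with ethylene switches on the defensin gene PDF1.2. JAZ genes are themselves targets of the MYC factors, and JMT methylates jasmonic acid.

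The genes described here are 10 jasmonate genes, read from 10 of the 22746 probe sets of an Affymetrix Arabidopsis array. They comprise 4 synthesis genes (LOX2, LOX3, AOS and OPR3), the methyltransferase gene JMT, 3 repressor genes (JAZ1, JAZ7 and JAZ10) and 2 response genes (VSP and PDF1.2). The members were chosen by name and pathway, 8 of them by a stated probe set (given as symbol.probe set: LOX2.252618_at, LOX3.261037_at, AOS.249208_at, OPR3.265530_at, JAZ1.256017_at, JAZ7.266901_at, JAZ10.250292_at and VSP.245928_s_at) and JMT (locus AT1G19640) and PDF1.2 (AT5G44420) through the platform annotation. The annotation used here does not list the 8 stated probe sets, so their gene names rest on the choice itself. That choice was made with earlier results of these data known, which limits what counts over the members can show. The VSP probe set is of a type whose probes match several genes, so VSP1 and VSP2 are not separated.

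Leaves of Arabidopsis thaliana plants, ecotype Col0, that carry the transgene AmGSTF1 were compared with leaves of Col0 plants without a transgene. AmGSTF1 is a glutathione transferase of a grass weed, and the series concerns its part in resistance to several herbicides. Leaves of both groups were floated on dilute detergent and solvent (0.1% Tween 20 with 0.1% acetone in water) over 4 hours, 10 leaves for each replicate, and there were 3 arrays of each group. Before that, the seed of both groups had been chilled (72 hours, 4 °C) and the plants raised in compost under 16-hour days at 20 °C. The promoter of the transgene, the number of transgenic lines and the age of the plants are not given in the sources used here. Arrays of leaves that had not been floated were not analysed here.

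Values are MAS5 signals, which combine the probes of a probe set into a linear intensity. The median signal was 151 to 164 on the AmGSTF1 arrays and 146 to 150 on the Col0 arrays. All 10 members were among the 13647 probe sets that remained after the 40% with the lowest mean were left out. Arrays numbered 2 had the lowest array weights of each group, 0.602 for AmGSTF1 and 0.645 for Col0, while the other 4 weights were 1.003 to 1.44. Of 18 listed markers of cell types and organs, 4 had a probe set named by the annotation. Of these, 0 were called by limma, against 5.04% of all probe sets tested. An unadjusted p under 0.05 was reached by 2, LHCB4.2 and FAMA, against 23.3% of all probe sets. The antenna protein gene LHCB4.2, a marker of leaf mesophyll, had signals of 8260 to 13241 in AmGSTF1 and 7542 to 8565 in Col0 (log2 difference 0.48, adjusted p = 0.145 with limma). The guard cell regulator FAMA had 60.0 to 96.3 in AmGSTF1 and 107 to 127 in Col0 (log2 difference -0.55, adjusted p = 0.201 with limma), and its part in the results was not tested. PYK10, a root marker, had 63.2 to 173 in AmGSTF1 and 38.5 to 85.9 in Col0, and SWEET11, a sugar transporter gene of phloem parenchyma, had 3368 to 4847 in AmGSTF1 and 2738 to 5236 in Col0.

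AOS and JMT fell in AmGSTF1 leaves, AOS by 1.69-fold and JMT by 2.43-fold on the log2(signal + 16) scale. The other 8 members did not pass the test, among them LOX3 and JAZ10 with lower values and PDF1.2 with higher ones. LOX2, OPR3, JAZ1, JAZ7 and VSP lay within 0.20 of 0 on the log2 scale. In whole-leaf RNA, less RNA per cell and fewer cells that express a gene cannot be told apart.

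Counted over the members, limma called 2 of 10 lower and 0 higher at an adjusted p under 0.05, where 2.90% and 2.14% of all probe sets tested were called lower and higher (5.04% in either direction). An unadjusted p under 0.05 was reached by 5 members, 4 lower and 1 higher, against 23.3% of all probe sets. Members with a difference below 0 numbered 8 of 10, against 44.1% of all probe sets tested. Among them, JAZ1 and JAZ7 changed sign under other settings. The median difference of the members was -0.18, beside 0.047 over all probe sets tested. In 3 members, LOX2, AOS and JMT, every AmGSTF1 signal lay below every Col0 signal, as for 13.1% of all probe sets, and 0 members were separated in the other direction, as for 14.5%.

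**Figure D1:**
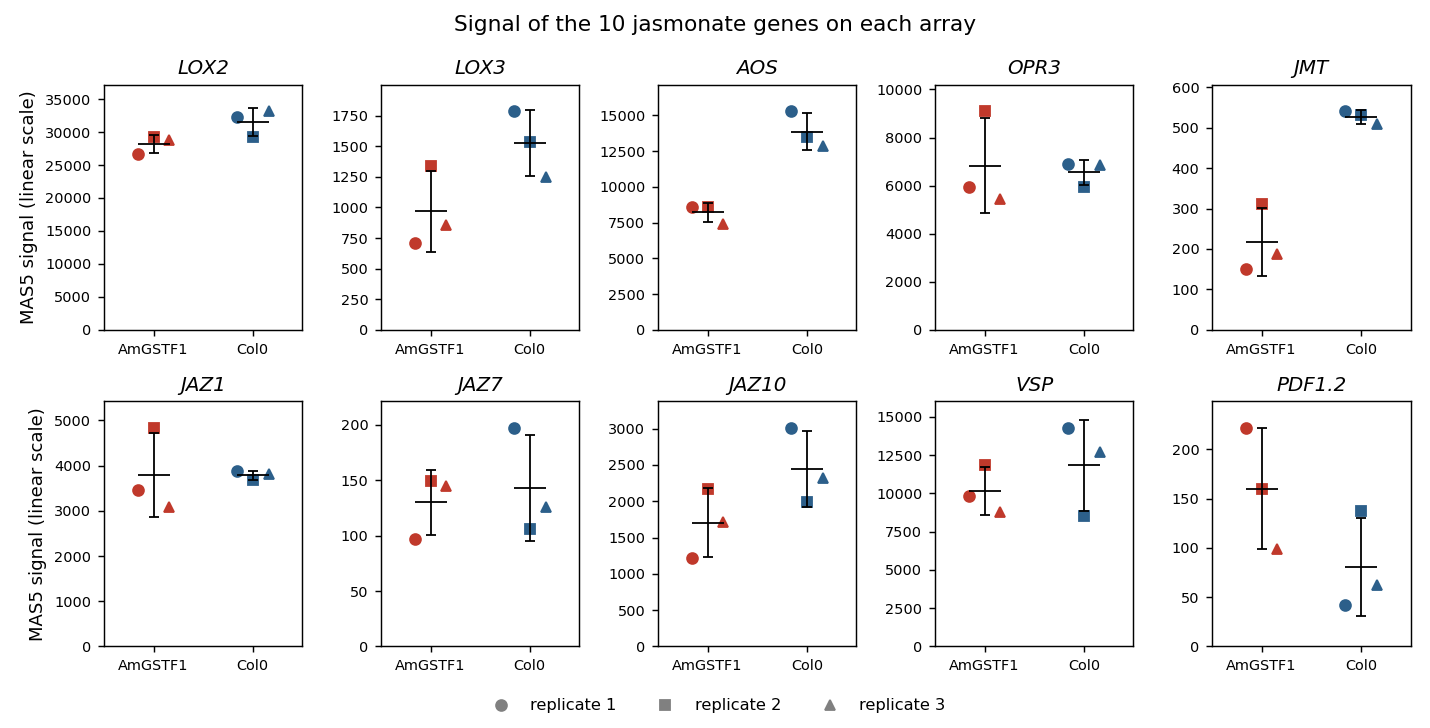
MAS5 signal (linear scale, from 0) of each of the 10 genes on the 3 AmGSTF1 arrays (red) and the 3 Col0 arrays (blue). Symbols mark the replicate number, horizontal bars the mean and error bars the SD. The groups stand clearly apart for AOS and JMT, and the AmGSTF1 array numbered 2 (square) is the highest of its group in 8 of the 10 panels.

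LOX2 encodes the chloroplast lipoxygenase that makes most of the jasmonate of wounded leaves. Its signals were 26694, 29190 and 28787 in AmGSTF1 and 32242, 29192 and 33163 in Col0. The groups did not overlap, but the highest AmGSTF1 array and the lowest Col0 array, both numbered 2, had almost the same signal. LOX2 differed by -0.16 on the log2 scale (95% interval -0.41 to 0.091; limma's adjusted p = 0.434), and by -0.0059 after cyclic loess normalization (adjusted p = 0.977). These signals lie near the top of the scale, where the highest signal of any probe set was 31865 to 38697 on the AmGSTF1 arrays and 31649 to 38235 on the Col0 arrays, and saturation was not tested.

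LOX3, a lipoxygenase induced by jasmonate, had signals of 709, 1336 and 857 in AmGSTF1 and 1786, 1535 and 1247 in Col0. A single AmGSTF1 array, that numbered 2, reached into the Col0 range. The log2 difference was -0.68 (-1.20 to -0.16), which did not pass (adjusted p = 0.117 with limma). Without AmGSTF1 replicate 2 it was -0.94 and passed (adjusted p = 0.0228), and without the other arrays in turn it was -0.49 to -0.82. As AmGSTF1 replicate 2 was the highest of its group, leaving it out moves the difference downward by construction, and the pass is no added support. Calls over all probe sets rose from 688 to 1069 in that fit.

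AOS encodes the enzyme that turns the lipoxygenase product into allene oxide, the first step specific to jasmonate synthesis. Its signals were 8627, 8599 and 7418 in AmGSTF1 and 15298, 13491 and 12833 in Col0. All 3 AmGSTF1 arrays were low, with a mean of 8215 ± 690 against 13874 ± 1276 (SD, n = 3 each), and the array numbered 2 did not stand out. The log2 difference was -0.75 (SE 0.13, 95% interval -1.04 to -0.47, adjusted p = 0.0182 with limma). The size of the AOS difference ranged from -0.68 to -0.81 when each array was left out in turn. Its call was lost without AmGSTF1 replicates 1 and 3 (adjusted p = 0.0891 and 0.0596) and without Col0 replicates 1 and 3 (0.0993 and 0.0702), and when all 22746 probe sets were tested (0.0506). Calls over all probe sets, 688 with all arrays, fell to 17 and 251 without AmGSTF1 replicates 1 and 3. They fell to 11 and 13 without Col0 replicates 1 and 3.

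OPR3 reduces the jasmonate precursor in peroxisomes. Its signals were 5942, 9094 and 5448 in AmGSTF1 and 6879, 5951 and 6837 in Col0, with 1 AmGSTF1 array above and the other 2 below all Col0 arrays. OPR3 differed by 0.024 on the log2 scale (-0.40 to 0.45, adjusted p = 0.956 with limma), and its sign depended on that array: without AmGSTF1 replicate 2 it was -0.20 (adjusted p = 0.388). It also turned negative under median centring (-0.064) and without Col0 replicate 2 (-0.044).

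JMT methylates jasmonic acid to the volatile methyl jasmonate. Its signals were 151, 311 and 187 in AmGSTF1 and 541, 530 and 508 in Col0. The Col0 arrays lay close together (SD 0.045 on the log2 scale), while the AmGSTF1 arrays spread more widely (SD 0.50), and the highest of them, numbered 2, was still well below every Col0 array. The log2 difference was -1.28 (SE 0.23, 95% interval -1.80 to -0.76, adjusted p = 0.0214 with limma). JMT had the largest difference of the 10 members in either direction. Without AmGSTF1 replicate 2, the highest array of its group, it was -1.56 (adjusted p = 0.00578), with 1069 calls over all probe sets against 688. Its call was lost without AmGSTF1 replicates 1 and 3 (-1.07 and -1.21, adjusted p = 0.0962 and 0.0615) and Col0 replicates 1 and 3 (-1.26 and -1.31, 0.0993 and 0.0814). In those fits the calls over all probe sets fell as well, as given for AOS.

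**Figure D2:**
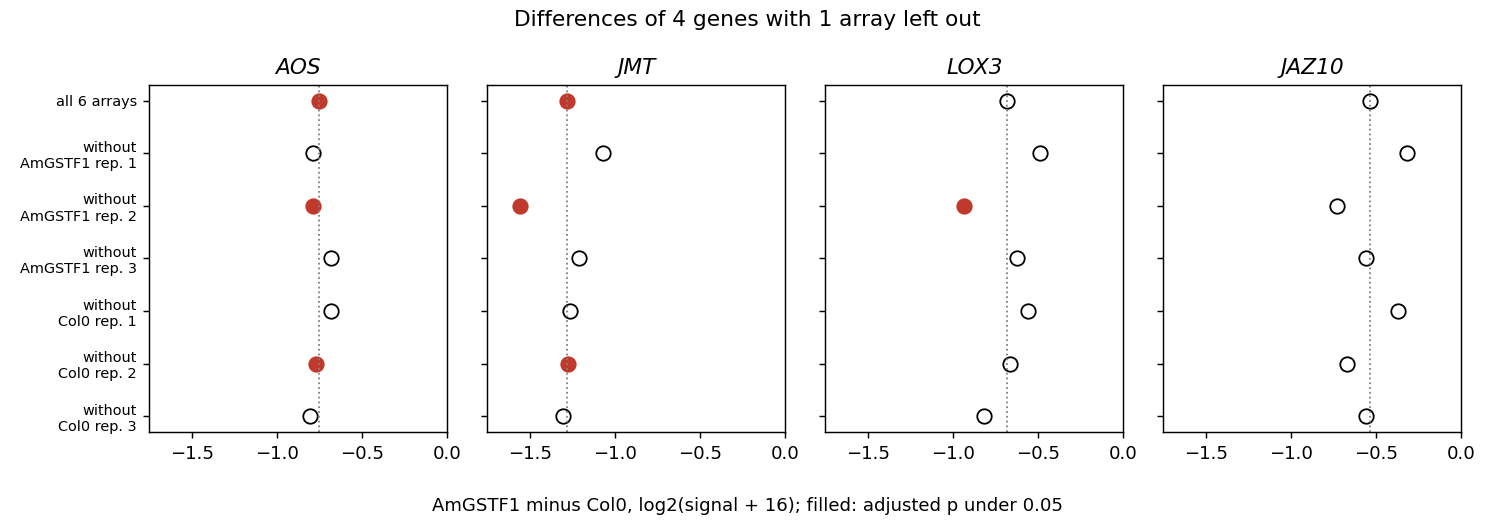
Difference between AmGSTF1 and Col0 on the log2(signal + 16) scale for AOS, JMT, LOX3 and JAZ10, from all 6 arrays and with each array left out in turn. Filled points have an adjusted p under 0.05, and the dotted line marks the value from all arrays. AOS moves little (-0.68 to -0.81), while LOX3 ranges from -0.49 to -0.94 and JAZ10 from -0.32 to -0.73.

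The JAZ proteins repress jasmonate-responsive transcription until the hormone brings about their breakdown. JAZ1 had signals of 3463, 4839 and 3087 in AmGSTF1 and 3873, 3683 and 3816 in Col0. The Col0 arrays were nearly equal, and the AmGSTF1 arrays lay on both sides of them. JAZ1 differed by -0.024 on the log2 scale (-0.40 to 0.36, adjusted p = 0.950 with limma), of a sign that turned under quantile and loess normalization (0.037 and 0.027).

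JAZ7, a strongly inducible JAZ gene, was dim, with signals of 96.6, 149 and 144 in AmGSTF1 and 197, 106 and 126 in Col0. The groups overlapped throughout. On the log2 scale JAZ7 differed by -0.10 (-0.70 to 0.49, adjusted p = 0.859 with limma), the widest interval among the repressors, and it turned positive when AmGSTF1 replicate 1 (0.074) or Col0 replicate 1 (0.13) was left out.

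JAZ10, often used as a marker of the jasmonate response, had signals of 1222, 2175 and 1710 in AmGSTF1 and 3013, 1989 and 2325 in Col0. AmGSTF1 replicate 2 was again the highest of its group and lay above Col0 replicate 2. The log2 difference was -0.53 (-1.04 to -0.032), which did not pass (adjusted p = 0.188 with limma), and it was -0.32 without AmGSTF1 replicate 1 and -0.73 without AmGSTF1 replicate 2 (adjusted p = 0.497 and 0.0701).

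VSP encodes vegetative storage proteins, abundant targets of the MYC branch in leaves. Its signals were 9821, 11862 and 8780 in AmGSTF1 and 14291, 8528 and 12719 in Col0. The lowest array of all was Col0 replicate 2, and the groups overlapped. VSP differed by -0.20 on the log2 scale (-0.64 to 0.24, adjusted p = 0.593 with limma), and omitting 1 array moved that value in both directions. Leaving out Col0 replicate 2 gave -0.42 (adjusted p = 0.134), Col0 replicate 1 gave -0.048 and AmGSTF1 replicate 3 gave -0.10.

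PDF1.2 encodes a defensin of the branch shared with ethylene. Its signals were 222, 160 and 98.4 in AmGSTF1 and 42.5, 137 and 62.1 in Col0. Col0 replicate 2 lay above the lowest AmGSTF1 array. PDF1.2 was higher by 0.93 on the log2 scale (0.059 to 1.79), which did not pass (adjusted p = 0.187 with limma). It was 0.65 with a pseudocount of 64 and 1.08 with a pseudocount of 1, since these signals are near those of the dimmest probe sets tested.

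Across the 10 members, AmGSTF1 replicate 2 was the highest array of its group in 8 and the lowest in 0, where it was the highest for 34.2% and the lowest for 39.4% of all probe sets tested. Col0 replicate 1 was the highest of its group in 8 members, against 30.0% of all probe sets. In Col0 replicate 2, 6 members were the lowest of their group, against 35.3% of all probe sets. Both arrays numbered 2 were also left out, a choice made after the values were seen. The AmGSTF1 array removed was the highest in 8 members and the Col0 array the lowest in 6. Leaving them out therefore moves most member differences downward by construction, and the calls that follow are no added support. Called lower were 5 members: LOX3 (-0.92), AOS (-0.81), JAZ10 (-0.86), VSP (-0.54) and JMT (-1.55), with limma's adjusted p from 0.00263 for JMT to 0.0227 for VSP. In that fit 0 members were called higher, PDF1.2 was at 1.29 (adjusted p = 0.0661), and 7.97% of all probe sets were called higher and 6.73% lower.

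Beyond the members, 67 further genes of jasmonate synthesis, turnover, signalling and response were listed, of which 11 had a probe set named by the annotation and 9 were bright enough to be tested. Of these 9, limma called 1 lower and 0 higher, against 2.90% and 2.14% of all probe sets. An unadjusted p under 0.05 was reached by 5 of them, 3 lower and 2 higher, against 23.3% of all probe sets. Their median difference was 0.017, beside 0.047 over all probe sets tested.

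The gene called was AT2G38240, listed as JOX4, one of the jasmonate-induced oxygenases that hydroxylate and so inactivate jasmonic acid. It had signals of 3162, 3992 and 3038 in AmGSTF1 and 5226, 5933 and 4996 in Col0, with all AmGSTF1 arrays low. AT2G38240 fell by 0.67 on the log2 scale (SE 0.15, 95% interval -0.996 to -0.34, adjusted p = 0.0336 with limma). The call of AT2G38240 held without AmGSTF1 replicate 2, the highest of its group (-0.79, adjusted p = 0.0167). It was lost without each of the other 5 arrays (-0.59 to -0.72, adjusted p = 0.0511 to 0.142), with all probe sets tested (0.0616) and without the intensity trend (0.0642). Calls over all probe sets rose from 688 to 1069 without AmGSTF1 replicate 2 and to 1133 without Col0 replicate 2. They fell without each of the remaining arrays, as given for AOS. In the fit without Col0 replicate 2, AOS and JMT kept their calls (adjusted p = 0.0180 and 0.0281), while AT2G38240 lost its own (0.0511). Its relatives AT5G05600 and AT3G55970, listed as JOX2 and JOX3, differed by -0.19 (-0.53 to 0.14) and 0.017 (-0.44 to 0.48), while AT3G11180, listed as JOX1, was too dim to be tested, with signals of at most 39.0 in AmGSTF1 and 11.6 in Col0.

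Of the remaining synthesis genes, AIM1, a multifunctional enzyme of the peroxisomal chain shortening that completes jasmonate, had signals of 1806, 1328 and 1409 in AmGSTF1 and 1172, 1152 and 1047 in Col0. All AmGSTF1 arrays were above all Col0 arrays, but the log2 difference of 0.41 (0.071 to 0.76) did not pass (adjusted p = 0.143 with limma). OPCL1, the ligase that activates the precursor for that step, differed by 0.038 (-0.25 to 0.33). The lipase gene DGL was too dim to be tested.

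Among the transcription factors, MYC4 had signals of 248, 224 and 209 in AmGSTF1 and 545, 370 and 295 in Col0. The groups did not overlap and the Col0 arrays spread widely. The log2 difference of MYC4 was -0.75 (-1.23 to -0.26), which did not pass (adjusted p = 0.0778 with limma). With 1 array left out it was -0.51 to -0.94 (adjusted p = 0.0853 to 0.237), the smallest being without Col0 replicate 1. MYC3, its close relative, differed by 0.13 (-0.20 to 0.45, adjusted p = 0.646).

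Response genes pointed in both directions without passing. The thionin gene THI2.1 had signals of 260, 341 and 147 in AmGSTF1 and 457, 438 and 1328 in Col0, with a log2 difference of -1.39 (-2.32 to -0.46, adjusted p = 0.0830 with limma). That value owed much to Col0 replicate 3, without which it was -0.88 (adjusted p = 0.192). The defensin gene PDF1.2b had 391, 188 and 237 in AmGSTF1 and 47.0, 129 and 142 in Col0, a log2 difference of 1.29 (0.45 to 2.12, adjusted p = 0.0760 with limma). In both genes the groups did not overlap, as in 27.6% of all probe sets in either direction. Without both arrays numbered 2, the fit chosen after the values were seen, PDF1.2b was called higher (1.68, adjusted p = 0.0308 with limma). THI2.1 was called lower in that fit (-1.91, adjusted p = 0.0218). The arrays removed were the highest AmGSTF1 and the lowest Col0 array of THI2.1, and included the lowest AmGSTF1 array of PDF1.2b. Leaving them out therefore moves both differences away from 0 by construction, and these calls are no added support. In that fit 7.97% of all probe sets were called higher and 6.73% lower. The PDF1.2b probe set is of a type that may detect related sequences, so PDF1.2 and PDF1.2b are not certain to be separate measurements.

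**Figure D3:**
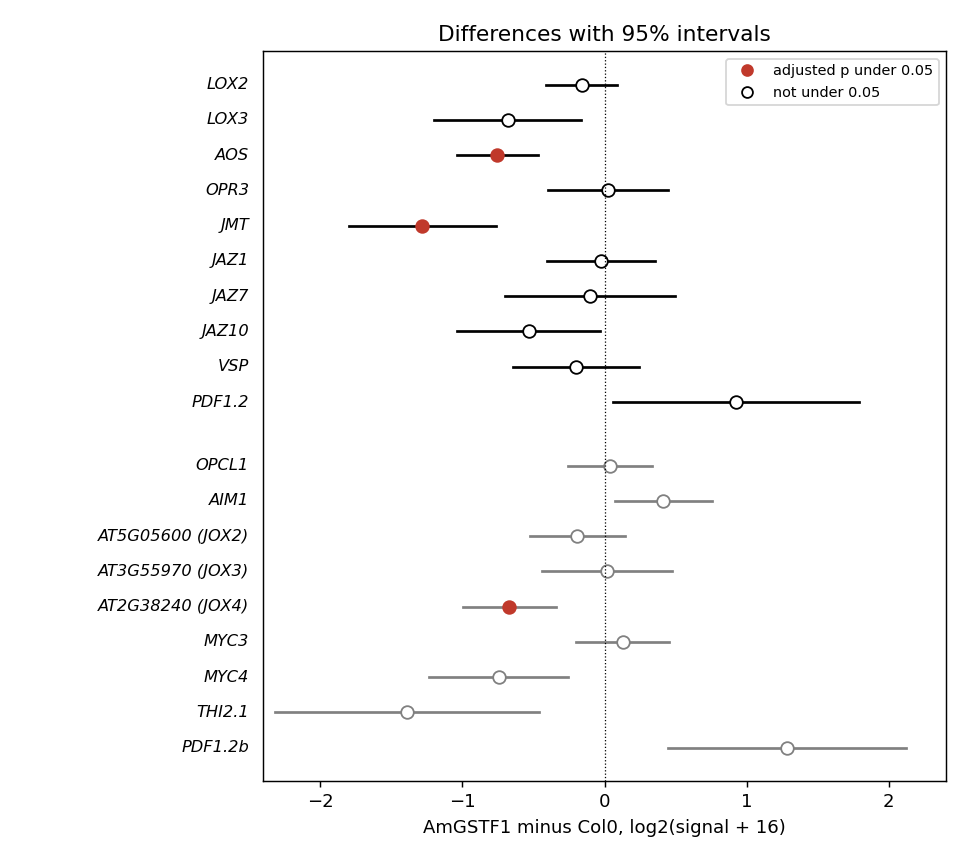
Difference between AmGSTF1 and Col0 on the log2(signal + 16) scale with 95% intervals from limma (3 arrays per group), for the 10 members (black, upper block) and the 9 other tested jasmonate genes (grey, lower block). Filled red points have an adjusted p under 0.05: AOS, JMT and AT2G38240, all lower in AmGSTF1.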

How the data were processed

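Transcript levels were measured on 6 arrays, 3 of AmGSTF1 and 3 of Col0 leaves, grouped by the transgene in each label. The table deposited by the authors holds linear signal intensities, for which the submitters' processing notes name MAS5 and Affymetrix Expression Console 1.1. Each array's mean after trimming 2% at each end was 496, so no further scaling was applied. Signals were taken as log2(signal + 16), which understates changes of dim genes, and the 40% of probe sets with the lowest mean were left out. Groups were compared with limma 3.58.1 in R 4.3.3 (intensity trend, no replicate term, two-sided), adjusted by Benjamini-Hochberg over 13647 probe sets, with a threshold of 0.05. No exact permutation test was used on single genes, since its smallest p with 3 arrays a group is 0.1. The labels call the replicates biological. The number of arrays limits the precision, and detection calls were not used.

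The members and gene lists were chosen with earlier results of these data known. All 10 members are named, as is every other gene of the jasmonate lists whose probe set the annotation gives to that gene alone. Of the 22746 probe sets, 13513 had 1 gene, 503 had several and 8730 were unnamed here. Symbols come from the RefSeq table of assembly TAIR10.1. The limma fit was tested on simulated data with independent noise for each probe set. No differences between arrays were simulated, so that test does not cover the arrays of low weight. Figures were drawn with Python 3.11.15.

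The alternatives were other pseudocounts, filters, normalizations, variance models and thresholds, a replicate block and leaving out arrays. No sequence tables were used here.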

Additional observations from a re-analysis of the deposited data

How the results depend on the processing

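The number of members called lower, 2 with all arrays, was 1 with no filter on dim probe sets (JMT) and 1 at 2-fold or more (JMT). It was 0 at an adjusted p under 0.01, 0 with the replicate block and 0 to 3 without 1 array. The 3 were called without AmGSTF1 replicate 2, where 566 of 13647 probe sets were called lower, against 396 with all arrays. The number was also 3 with array weights, where 827 probe sets were called lower. It was 5 without both arrays numbered 2, an alternative chosen after the data were seen that moves most member differences downward by construction. Members called higher numbered 0 under every setting run. Over all probe sets, 292 were called higher and 396 lower. These counts became 123 and 213 with all 22746 probe sets tested, 192 and 237 when the intensity trend was dropped, 814 and 827 with array weights, and 40 and 38 with the replicate block. They were 9 and 13 at an adjusted p under 0.01, 745 and 777 at 0.1, 135 and 96 at 2-fold or more, 1087 and 918 without both arrays numbered 2, and 6 to 603 and 5 to 566 without 1 array. Median centring gave 222 higher and 599 lower. Among values near 0, OPR3 was -0.064 under median centring, -0.11 with array weights, -0.27 without both arrays numbered 2 and -0.20 to 0.17 without 1 array. JAZ1 was 0.037 with quantile and 0.027 with loess normalization and -0.21 to 0.11 without 1 array, and JAZ7 was -0.27 to 0.13 without 1 array. OPCL1 was -0.050 under median centring and -0.037 to 0.12 without 1 array. AT3G55970 (JOX3) was -0.071 under median centring, -0.10 with array weights, -0.14 without both arrays numbered 2 and -0.16 to 0.18 without 1 array. Deviations of same-numbered arrays from their group means correlated at 0.146, -0.027 and -0.050 across probe sets, and 2 of 6 arrays correlated best with their own number, so the numbers were not taken as pairs. With the replicate block the adjusted p was 0.0518 for AOS, 0.0564 for JMT and 0.0582 for AT2G38240. The cause of the shifts above was not tested. With array weights, LOX3 (limma's adjusted p = 0.0334), MYC4 (0.0397), PDF1.2b (0.0281) and THI2.1 (0.0365) passed. The weights were lowest for the arrays numbered 2, so this fit leans toward leaving them out, and the passes are no added support. It called 1641 of 13647 probe sets, against 688 without weights. Each listed gene that the annotation names had 1 probe set, so counting all probe sets of a gene changed nothing. The motif counts planned for promoters were not run.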
